A study of Mus musculus with 12 samples.

Results

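Semaphorins are guidance proteins, some secreted and some anchored in the cell membrane, that steer growing axons, dendrites and migrating neurons. Plexins are their signalling receptors, and neuropilins are co-receptors that bind most of the secreted class 3 semaphorins. The family was taken as every protein-coding gene whose symbol begins with Sema3 to Sema7 or Plxn, together with Nrp1 and Nrp2. This gave 31 genes, out of 21974 protein-coding genes and 55487 genes of all kinds in the count tables. The 20 ligands were 7 class 3, 6 class 4, 2 class 5, 4 class 6 and 1 class 7 semaphorins. The 11 receptors were 9 plexins (4 of type A, 3 of type B, 1 of type C and 1 of type D) and 2 neuropilins. All 31 passed the filter on low counts in every comparison, and 3 antisense genes at the Plxna4 locus were left out because they are not protein-coding.

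In the usual scheme, a secreted class 3 semaphorin binds a neuropilin that sits in a complex with a class A plexin, and the plexin signals inside the cell through a GTPase-activating domain and through GTPases such as Rac1, Rnd1 and Rap1. Sema3e is an exception, since it binds Plxnd1 without needing a neuropilin. Class 4 and class 6 semaphorins span the membrane and mostly bind B and A plexins, respectively, class 5 proteins carry thrombospondin repeats, and Sema7a is held by a lipid anchor and binds Plxnc1. In the forebrain these proteins are known for guiding corticofugal and commissural axons and migrating interneurons, and in the hippocampus for arranging mossy fibres and other layered inputs.

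The libraries came from 12 male mice, one mouse each, in 4 groups of 3, from crosses that carry a floxed exon 7 of Auts2, a neurodevelopmental regulator whose long isoform needs that exon. At postnatal day 0 (P0) the tissue was forebrain, from Cmv-cre, Auts2-ex7-/- knockouts and from wild-type littermates labelled BL6 WTLM. At postnatal day 14 (P14) it was hippocampus, from Nes-cre, Auts2-ex7-/- knockouts and from fl-het controls, which have 1 floxed allele and whose labels do not say whether they carry Cre. Cmv-cre deletes throughout the body, while Nes-cre acts in neural progenitors and their progeny. Which P14 cells lost exon 7, and whether vessels and microglia kept it, was not measured here. Each comparison of knockout with control therefore has its own tissue, age, Cre line and control genotype.

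The promoters of 4 ligands that the results turn on are printed here so that the levels below can be read beside the DNA in front of a RefSeq start of each gene. The Sema3a window lies inside the GENCODE span of that gene, before an internal transcript start, because other transcripts begin upstream of it. Each line gives the 250 bases before the RefSeq start on GRCm38.p6, plus strand, with capitals at every match, on either strand, to GGGCGG (the GC box), CCAAT (the CCAAT box) or TATAAA (the TATA box).
Sema3d, chr5:12382916-12383165: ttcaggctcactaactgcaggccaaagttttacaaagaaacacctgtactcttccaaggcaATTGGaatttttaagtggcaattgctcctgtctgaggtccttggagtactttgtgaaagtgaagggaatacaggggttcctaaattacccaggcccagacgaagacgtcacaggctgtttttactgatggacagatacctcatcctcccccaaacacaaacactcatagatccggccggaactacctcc
Sema3e, chr5:14025026-14025275: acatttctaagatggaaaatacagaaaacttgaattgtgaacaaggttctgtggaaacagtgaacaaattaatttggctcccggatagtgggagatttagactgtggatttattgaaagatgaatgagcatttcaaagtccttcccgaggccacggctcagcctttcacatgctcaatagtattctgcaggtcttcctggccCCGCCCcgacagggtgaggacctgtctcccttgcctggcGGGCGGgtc
Sema3a, chr5:13396534-13396783: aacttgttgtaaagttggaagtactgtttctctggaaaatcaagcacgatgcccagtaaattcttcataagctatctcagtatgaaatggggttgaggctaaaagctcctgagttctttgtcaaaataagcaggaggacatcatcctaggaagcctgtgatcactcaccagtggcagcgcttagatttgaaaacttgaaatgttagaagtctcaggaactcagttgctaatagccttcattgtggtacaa
Sema5a, chr15:32244563-32244812: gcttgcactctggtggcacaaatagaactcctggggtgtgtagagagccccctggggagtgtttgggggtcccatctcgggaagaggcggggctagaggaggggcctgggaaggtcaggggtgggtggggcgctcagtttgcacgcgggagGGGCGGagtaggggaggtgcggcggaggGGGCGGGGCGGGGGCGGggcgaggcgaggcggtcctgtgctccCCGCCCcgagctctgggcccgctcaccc
Sema3d and Sema3e, the pair that was lower in the P0 knockouts, share no motif in these windows. Sema3d holds 1 CCAAT box match, at base 62 of the window, and Sema3e holds 2 GC box matches, at bases 203 and 242. The Sema3a window, at that internal start, holds none of the 3 motifs and 2 CpG dinucleotides, and the counts were 4 in Sema3d, 7 in Sema3e and 17 in Sema5a, where the median over 32851 RefSeq windows of this length was 6 and the quartiles were 2 and 16. Sema5a holds 5 GC box matches, and 100 bases of its window lie in an exon of the non-coding gene Snhg18 and 3 in the first exon of Sema5a as GENCODE draws it. The GC box was present in 32.7% of all windows, the CCAAT box in 33.8% and the TATA box in 12.4%. RefSeq windows were found for 26 of the 31 genes. A match is a description of the letters and was not tested as a binding site.

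Total gene counts ran from 11247150 to 16796797 in the P0 libraries and from 16830720 to 23340621 in the P14 libraries. Gene-level Auts2 counts sum all isoforms and so do not measure the loss of exon 7. Auts2 stood at 136 to 160 CPM (read counts scaled to library size by TMM) in the P0 wild types and 161 to 182 in the knockouts, and at 97.5 to 110 in the P14 controls and 75.2 to 93.0 in the knockouts. Its log2 fold change was 0.16 at P0 (adjusted p = 0.362) and -0.30 at P14 (adjusted p = 0.111), so it was called in neither. The 8 hippocampal label markers summed to 1200 to 1677 CPM at P14 and 525 to 759 CPM at P0, and no marker list had a gene at 0 in any group. Adjusted p-values are those of edgeR's quasi-likelihood test with Benjamini-Hochberg adjustment over all genes, a call is an adjusted p under 0.05, and each fold change is knockout over control with its standard error (SE).

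To compare levels between genes, CPM were divided by the length of each gene's merged exons in kilobases. In the P0 wild-type forebrain the highest ligands on this scale were Sema7a at 27.3 ± 2.5, Sema6b at 22.5 ± 0.43 and Sema6c at 18.0 ± 1.9 CPM per kb (SD, n = 3). The highest receptors were Plxna1, a signalling partner of neuropilins, at 24.9 ± 0.41, Plxnb2, a receptor of class 4 semaphorins, at 19.4 ± 1.4 and Plxnd1, the Sema3e receptor, at 16.4 ± 1.2 CPM per kb. The ranges of these neighbours in the receptor order did not meet, but those of Plxnd1, Nrp2 (15.4 ± 0.23) and Plxna3 (15.4 ± 1.8) did. In the P14 control hippocampus Sema6b (40.5 ± 2.9) and Sema7a (40.4 ± 3.1) were level with each other and stood well above Sema3c (17.9 ± 0.92) and Sema4d (17.8 ± 0.46), which were again level. Among P14 receptors Plxna1 stayed first at 24.3 ± 5.3, followed by Plxna4, a co-receptor subunit for Sema3a, at 16.9 ± 3.6 and Plxnb1, the Sema4d receptor, at 13.5 ± 1.3 CPM per kb. The lowest members were Plxnb3 at 0.240 ± 0.12 at P0 and Sema3a at 0.378 ± 0.079 at P14, where the range of Sema3f (0.427 ± 0.10) overlapped it. The order depends on which length is used. Per kilobase of coding sequence the first ligand was Sema4g at P0 (53.5) and Sema5a at P14 (68.3), and Nrp2 was the first receptor in both (65.4 and 46.8). On that length Sema3f (0.942) was the lowest member at P14, under Sema3a (2.26).

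Of the genes that rank in the first 3 per kb of merged exons, Sema3c at P14 was the 1 called in a knockout comparison. In plain CPM, Sema7a stood at 84.8, 85.9 and 99.6 in the P0 wild types and 96.5, 93.0 and 108 in the P0 knockouts, and at 136, 122 and 142 in the P14 controls and 142, 140 and 164 in the P14 knockouts. Sema6b, a transmembrane ligand of A plexins, stood at 88.9, 87.9 and 91.2 against 93.8, 85.4 and 108 CPM at P0, and at 173, 152 and 157 against 170, 181 and 159 CPM at P14. Sema6c, of the same class, stood at 103, 97.6 and 119 against 112, 125 and 151 CPM at P0, and at 56.3, 52.2 and 59.6 against 54.3, 43.0 and 57.9 CPM at P14. For these ligands the groups overlapped in both tissues. Among the receptors at P0, Plxna1 stood at 230, 224 and 223 CPM in the wild types and 203, 209 and 204 CPM in the knockouts, without overlap (log2 fold change -0.14, SE 0.07, adjusted p = 0.324). Plxnb2 stood at 150, 140 and 161 against 140, 131 and 168 CPM, and Plxnd1 at 112, 117 and 129 against 96.5, 107 and 103 CPM. Plxna4 stood at 196, 155 and 187 against 187, 209 and 158 CPM, and Plxnb1 at 121, 116 and 140 against 107, 126 and 135 CPM. Of these 5 receptors, Plxna1 and Plxnd1 were lower in every P0 knockout and the other 3 overlapped, and none was called. Over all 11 receptors the P0 groups did not overlap for 3, where 21.8% of all genes tested did not overlap.

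**Figure D1:**
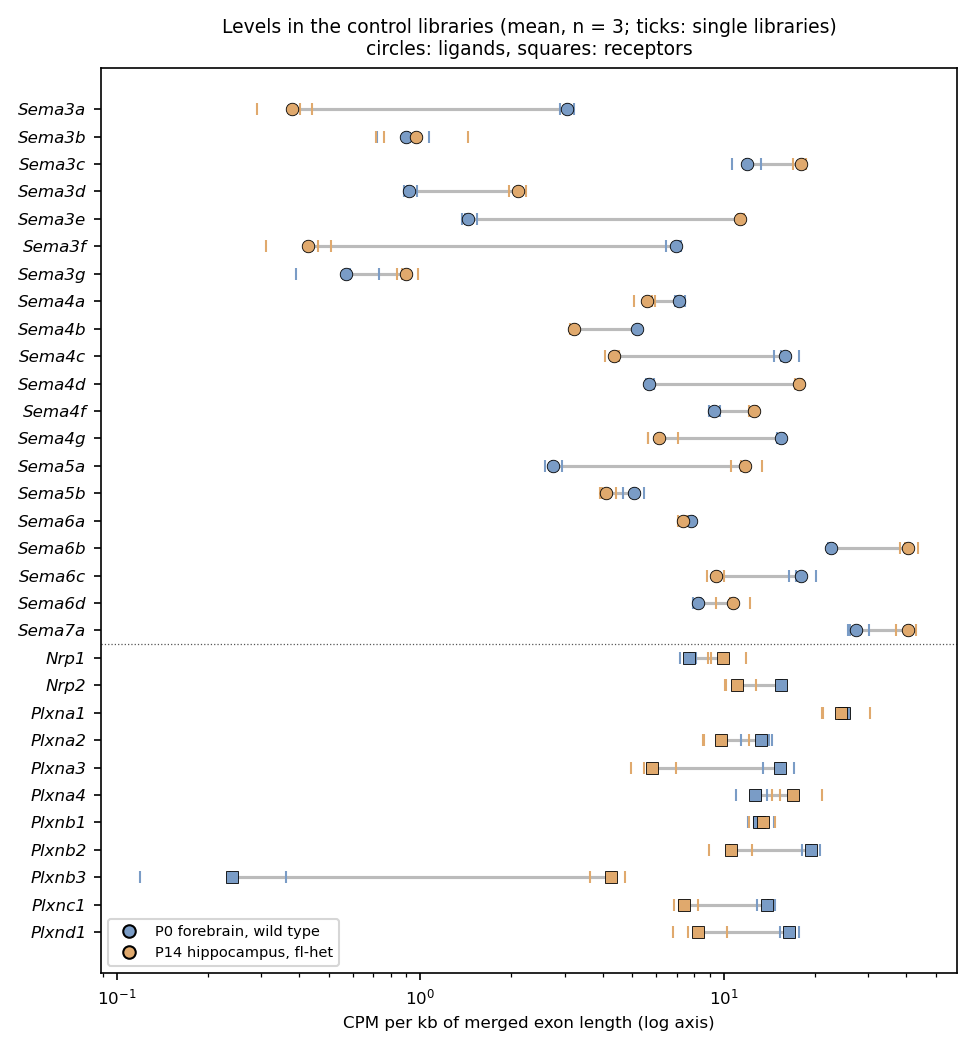
Level of each of the 31 genes in the control libraries, as CPM per kb of merged exon length on a log axis; filled symbols are means of 3 libraries and ticks are single libraries, blue for P0 wild-type forebrain and orange for P14 fl-het hippocampus. Sema3a and Sema3f sit far to the left at P14, and Plxnb3, Sema3e and Sema5a far to the right of their P0 level.

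Between the control libraries of the P0 forebrain and the P14 hippocampus, single genes of the family differed in both directions while the family's summed level overlapped, at 2490 to 2706 CPM in the P0 wild types and 2447 to 2938 CPM in the P14 controls. Tissue, age, control genotype and library series cannot be told apart here, and in bulk tissue neither can fewer cells of a type and less RNA per cell. The comparison uses the same control libraries as the knockout comparisons below. Of the 31 genes, 27 were called between the P14 and P0 controls, 13 higher and 14 lower at P14, where 64.7% of all 17355 genes tested were called, 32.5% higher and 32.2% lower. The ligands split into 10 higher and 8 lower of 20, and the receptors into 3 higher and 6 lower of 11. Sema3f, a repellent that acts through Nrp2, stood at 37.5, 33.6 and 37.2 CPM at P0 and at 1.62, 2.40 and 2.64 CPM at P14, a log2 difference of -4.02 (SE 0.15, adjusted p = 2.19e-12). Sema3a, the classical growth cone collapsing factor, stood at 44.4, 42.2 and 40.0 CPM at P0 and at 6.12, 4.02 and 5.59 CPM at P14, a log2 difference of -3.01 (SE 0.14). Sema3e went the other way, from 14.3, 12.7 and 13.0 CPM to 108, 104 and 104 CPM, a log2 difference of 2.97 (SE 0.09). Class 3 ligands thus lay on both sides, with 4 of 7 higher and 2 lower.

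Other large differences between the controls were those of Plxnb3 (4.22), Sema5a (2.10), Sema4d, an immune and oligodendrocyte semaphorin (1.63), and Sema3d (1.18), all higher at P14. Lower at P14 were Sema4c, a Plxnb2 ligand (-1.88), Plxna3 (-1.41), Sema4g (-1.35), Plxnd1 (-1.0), Sema6c (-0.94), Plxnc1 (-0.91) and Plxnb2 (-0.88). Plxnb3, known as a plexin of oligodendrocytes, stood at 2.35, 1.54 and 0.775 CPM at P0, from 14 to 28 counts a library, and at 23.5, 30.7 and 28.5 CPM at P14. Of 6 oligodendrocyte precursor markers, 5 were called higher at P14 with a median log2 difference of 1.01, and they summed to 241 to 284 CPM at P0 and 604 to 683 CPM at P14. The myelin gene Mbp stood at 42.4 to 45.0 CPM at P0 and 1981 to 2832 CPM at P14, and Mog, another myelin gene, at 10.2 to 12.7 CPM and 42.2 to 73.0 CPM. Both were called higher at P14, with log2 differences of 5.77 and 2.35, and were chosen for mention after their values were seen. The part of these cells in the Plxnb3 and Sema4d values was not tested. The remaining called members differed by 0.31 to 0.84 in log2 size. Sema6b (0.84), Sema3g (0.63), Sema3c (0.58), Sema7a (0.55), Sema4f (0.43), Plxna4 (0.41), Nrp1 (0.37) and Sema6d (0.37) were higher at P14. Sema4b (-0.70), Nrp2 (-0.49), Plxna2 (-0.45), Sema4a (-0.35) and Sema5b (-0.31) were lower. The call of Sema3g was lost in 6 of 12 alternatives, among them DESeq2, upper-quartile scaling and the fits without P14 control replicate 2 or 3 or wild-type replicate 1 or 2. That of Plxna2 was lost without P14 control replicate 1 or 2 or wild-type replicate 1 or 3, and that of Plxna4 with upper-quartile scaling and without wild-type replicate 2 or 3. That of Sema5b was lost without wild-type replicate 1. Plxna1, Plxnb1, Sema3b and Sema6a did not pass, with log2 differences from -0.09 to 0.10.

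In the P0 forebrain 2 of the 31 genes changed in the knockouts, and both were secreted class 3 ligands that fell. The background is 0.909% of 16176 genes called, 0.717% of them lower and 0.192% higher. Sema3d, which guides axons and neural crest cells, stood at 8.40, 7.78 and 7.59 CPM in the wild types and at 3.98, 3.56 and 3.63 CPM in the knockouts. Every knockout library lay below every wild-type library, and the log2 fold change was -1.09 (SE 0.18, adjusted p = 0.0197) on 43 to 137 counts a library. Sema3e, the Plxnd1 ligand that restrains vessel and axon growth, stood at 14.3, 12.7 and 13.0 CPM in the wild types and at 6.44, 6.63 and 8.17 CPM in the knockouts. Again the groups did not overlap, and the log2 fold change was -0.91 (SE 0.15, adjusted p = 0.0197).

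Both P0 calls were lost when knockout replicate 1 or 2, or wild-type replicate 1 or 2, was left out, since then no member was called. In those 4 fits 1 to 15 genes of all genes tested were called, and over all alternatives the log2 fold change stayed between -1.13 and -1.05 for Sema3d and between -1.04 and -0.84 for Sema3e. The P0 libraries carry numbers from 2 series, 1407 to 1410 and 1415 to 1416. In the first series the log2 fold change of Sema3d was -1.10 and that of Sema3e -1.04, and in the single pair of the second series the log2 ratios were -1.06 and -0.67, with no test possible for 1 pair.

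The other 29 members were not called at P0. Of all 31, 12 had a log2 fold change above 0 (49.9% of all genes did) and 19 below, with a median of -0.04 against -0.00034 for all genes tested. The libraries of the 2 groups did not overlap for 9 of the 31, where 21.8% of all genes tested did not overlap. Closest to the threshold came Sema4c at 70.8, 67.4 and 81.4 CPM in the wild types and 91.3, 95.2 and 97.8 CPM in the knockouts, a log2 fold change of 0.37 (SE 0.09, adjusted p = 0.0609). Next was Plxnc1, the Sema7a receptor, at 117, 123 and 107 CPM against 90.3, 86.9 and 101 CPM, a log2 fold change of -0.32 (SE 0.08, adjusted p = 0.0855). Neither gene's groups overlapped, and both were called in the fit restricted to the first series, in DESeq2, without the low-count filter and with the series as a term. The Sema3e receptor Plxnd1 had a log2 fold change of -0.23 (SE 0.08, adjusted p = 0.178), and the other class 3 ligands lay between -0.29 (Sema3b) and 0.37 (Sema3g). The neuropilins had log2 fold changes of 0.07 (Nrp1) and -0.04 (Nrp2). The remaining members lay between -0.23 (Sema6a) and 0.27 (Sema6c), except for Plxnb3 at -0.84 (SE 0.43) on 10 to 28 counts a library.

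**Figure D2:**
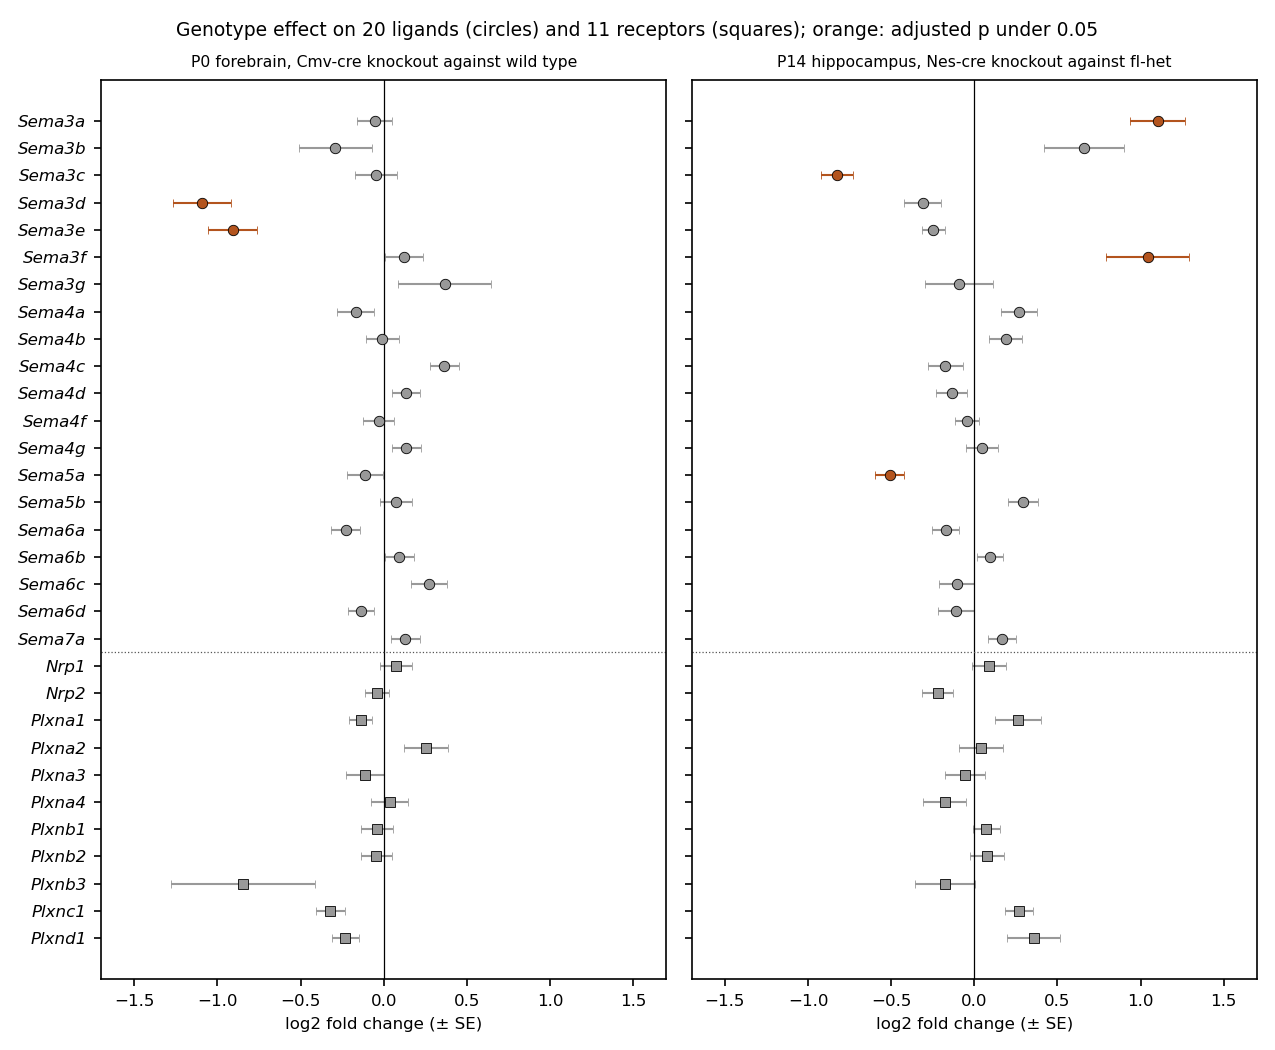
Log2 fold change (± SE) of each of the 31 genes in knockout over control, at P0 (left) and P14 (right), with ligands as circles above the dotted line and receptors as squares below it; orange marks an adjusted p under 0.05. The 6 orange points are all ligands, Sema3d and Sema3e at P0 and Sema3a, Sema3c, Sema3f and Sema5a at P14.

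Marker lists moved in the P0 comparison as well. Of all genes tested there, 0.192% were called higher and 0.717% lower, and 49.9% lay above 0. Of the dentate granule list, 2 of 7 tested markers were called lower and all 7 lay below 0, with a median log2 fold change of -0.55. Its summed level was 212 to 249 CPM in the wild types and 166 to 182 CPM in the knockouts. The astrocyte list had 1 of 8 called lower and a median of -0.41, summing to 575 to 763 CPM in the wild types and 513 to 522 CPM in the knockouts. Of the striatal list 1 of 9 (Tac1) was called lower, with sums of 208 to 246 CPM in the wild types and 185 to 197 CPM in the knockouts. Of the thalamus list 1 of 7 (Prkcd) was called lower, with sums of 398 to 511 CPM against 314 to 459 CPM. Of the microglia list 1 of 8 (P2ry12, at -0.93) was called lower, with sums of 80.1 to 103 CPM against 72.7 to 81.3 CPM. The 6 oligodendrocyte precursor markers all lay below 0 and none was called, with sums of 241 to 284 CPM against 210 to 216 CPM. Of the deep layer list 1 of 7 (Fezf2) and of the forebrain label list 1 of 8 (Lhx2) were called higher. The forebrain label list had 7 of 8 above 0, a median of 0.34 and sums of 2702 to 2942 CPM against 2928 to 3265 CPM. In the endothelial (median 0.02), pyramidal, mural, choroid plexus, progenitor, interneuron, hippocampal label and erythroid lists none was called. Still, the pyramidal sums did not overlap, at 535 to 635 CPM in the wild types and 664 to 759 CPM in the knockouts. Nor did the choroid plexus sums, at 671 to 856 CPM against 906 to 1000 CPM. All 8 mural markers lay below 0, and all 5 tested erythroid markers above 0. The part of these cell types in the Sema3d and Sema3e values was not tested.

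In the P14 hippocampus 4 of the 31 genes changed in the knockouts, again all ligands, with 2 higher and 2 lower. The background is 1.99% of 17208 genes called, 1.21% higher and 0.773% lower. Sema3a stood at 6.12, 4.02 and 5.59 CPM in the controls and at 10.6, 12 and 10.8 CPM in the knockouts. The groups did not overlap, and the log2 fold change was 1.10 (SE 0.17, adjusted p = 0.00294) on 72 to 259 counts a library. Sema3f stood at 1.62, 2.40 and 2.64 CPM in the controls and at 5.02, 5.25 and 3.31 CPM in the knockouts, a log2 fold change of 1.04 (SE 0.25, adjusted p = 0.0469). This was the least secure of the calls. It rests on 28 to 113 counts a library and was lost in a non-robust fit and without knockout replicate 1 or 2 or control replicate 1 or 2, with adjusted p from 0.00149 to 0.218 over the 13 alternatives.

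Sema3c, a class 3 ligand that attracts cortical axons, was the highest class 3 ligand per kb in control hippocampus and fell. It stood at 133, 130 and 121 CPM in the controls and at 71.6, 61.2 and 82.4 CPM in the knockouts. The highest knockout lay well under the lowest control, and the log2 fold change was -0.83 (SE 0.10, adjusted p = 0.000547). Sema5a, a transmembrane ligand known to limit synapse formation on dentate granule cells, stood at 197, 213 and 250 CPM in the controls and at 151, 149 and 160 CPM in the knockouts. Its log2 fold change was -0.51 (SE 0.09, adjusted p = 0.00725), and this call was lost without knockout replicate 1 (adjusted p = 0.0613). The calls of Sema3a and Sema3c were kept in all 13 alternatives, with log2 fold changes from 0.95 to 1.22 and from -0.94 to -0.72.

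Among the other P14 ligands, Sema3e stood at 108, 104 and 104 CPM in the controls and at 87.1, 88.6 and 88.5 CPM in the knockouts, with a log2 fold change of -0.25 (SE 0.07, adjusted p = 0.0791). Sema3d stood at 18.2, 19.2 and 16.8 CPM against 13.8, 15.8 and 13.7 CPM, with a log2 fold change of -0.31 (SE 0.11, adjusted p = 0.191). Neither passed, although in both every knockout lay below every control. Sema3b had a log2 fold change of 0.66 (SE 0.24, adjusted p = 0.202), with 3.41, 3.63 and 6.85 CPM in the controls and 6.76, 8.04 and 7.06 CPM in the knockouts. The choroid plexus markers varied in the same libraries, with summed levels of 149, 969 and 2549 CPM in the 3 controls and 1513, 2029 and 1369 CPM in the 3 knockouts. The third control was the highest of the 3 for both, and the part of choroid plexus in the Sema3b value was not tested. Sema5b had a log2 fold change of 0.29 (adjusted p = 0.12) and Sema4a of 0.27 (adjusted p = 0.255). The remaining 11 ligands lay between -0.17 and 0.19, and the 11 receptors between -0.22 (Nrp2, adjusted p = 0.28) and 0.36 (Plxnd1, adjusted p = 0.338).

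Over all 31 genes at P14, 16 log2 fold changes lay above 0 (48.5% of all genes did) with a median of 0.04, against -0.0073 for all genes tested. The groups of libraries did not overlap for 12 of the 31, where 20% of all genes tested did not overlap. Counting both comparisons, 6 of 20 ligands (30.0%) and 0 of 11 receptors were called at P0 or P14, where 2.97% of the 15643 genes tested in both were called. Within the ligands, 5 of the 7 class 3 genes (71.4%) and 1 of the 13 others were called, and Sema3b and Sema3g were the class 3 genes called in neither. At an unadjusted p under 0.05 the receptors counted 2 of 11 at P0 and 2 of 11 at P14, where 16.1% and 15.2% of all genes tested passed. DESeq2 called 1 receptor at P0, Plxnc1, and none at P14.

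**Figure D3:**
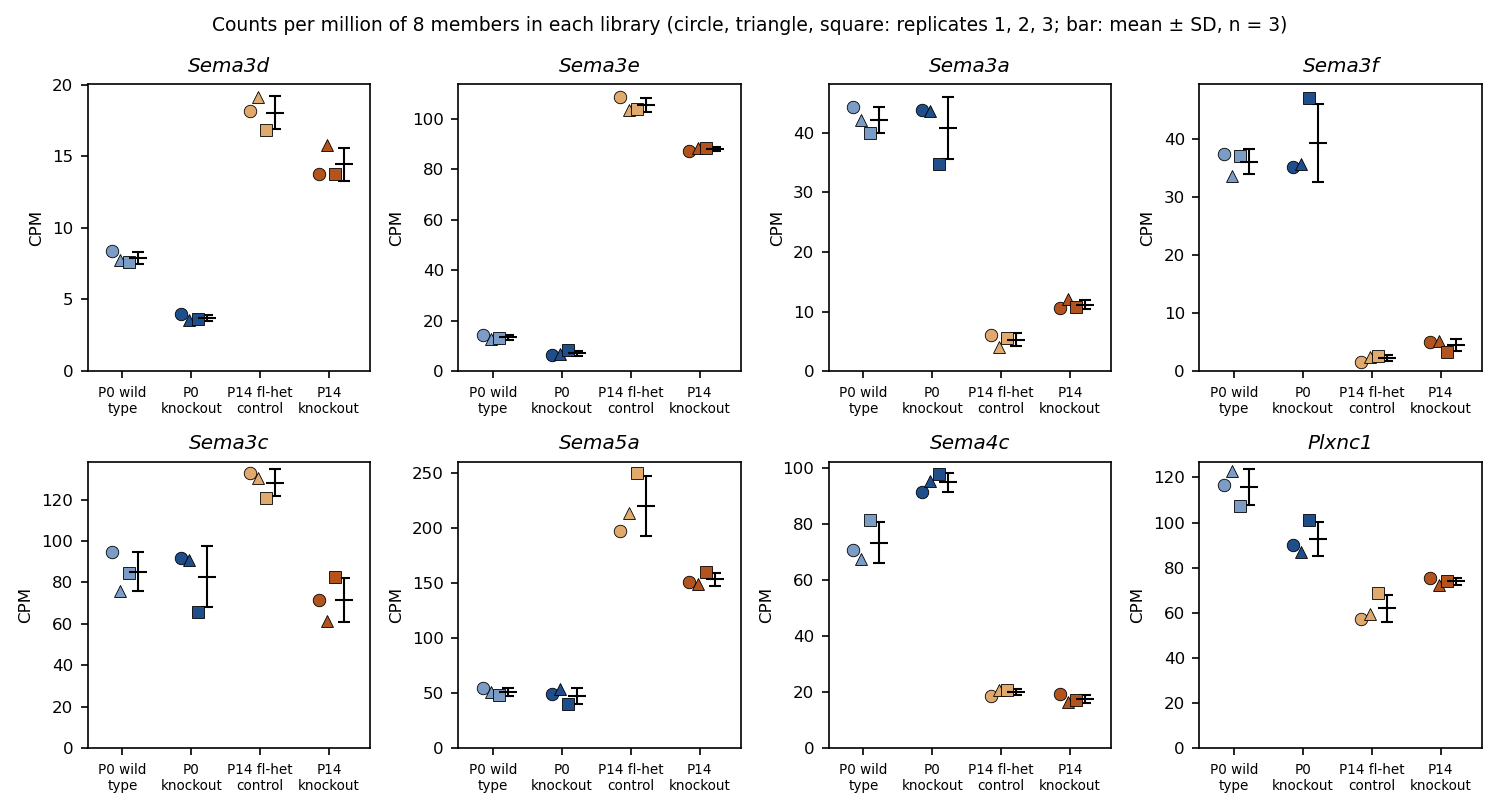
CPM in each of the 12 libraries for the 8 genes called at P0, at P14 or for the difference between the 2 effects; symbols are single libraries and the bar is the mean ± SD of 3. Sema3d and Sema3e are lower in every P0 knockout, Sema3a and Sema3f higher and Sema3c and Sema5a lower in every P14 knockout.

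Markers of hippocampal cell types also moved at P14. Of all genes tested there, 1.21% were called higher and 0.773% lower, and 48.5% lay above 0. Of 8 dentate granule markers, 6 were called lower (among them Prox1, the granule cell fate factor, at -0.76) with a median of -0.77, and their summed level was 566 to 618 CPM in the controls and 388 to 426 CPM in the knockouts. Of 7 cortical deep layer markers 3 were called higher, with sums of 696 to 722 CPM against 759 to 866 CPM. Among 9 striatal markers 1 was called higher and 8 lay above 0, with sums of 76.4 to 105 CPM against 115 to 201 CPM. The part of cells of these types, or of tissue taken with the hippocampus, in the semaphorin values was not tested. The pyramidal list had 1 of 8 called higher and 1 lower, the thalamus list 2 of 6 tested lower, the interneuron list 1 of 8 lower and the hippocampal label list 2 of 8 lower. The 8 endothelial markers all lay below 0 with a median of -0.21 and none was called. The 8 mural markers (median -0.22) and the 6 erythroid markers (median -0.49) all lay below 0 as well. All 7 choroid plexus markers lay above 0 (median 0.41). None was called in the mural, oligodendrocyte precursor, astrocyte, microglia, choroid plexus, progenitor, forebrain label and erythroid lists.

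The knockout effects at P0 and P14 were then compared directly, through an interaction contrast over the 12 libraries together. They differed for 6 of the 31 genes, 4 with a positive and 2 with a negative difference, where 1.79% of 18189 genes were called, 1.37% positive and 0.423% negative. Each value is the P14 log2 fold change minus the P0 one, so it covers tissue, age, Cre line and control genotype together. For Sema3a the difference was 1.14 (SE 0.18, adjusted p = 0.00186), with P0 knockouts at 43.9, 43.8 and 34.8 CPM, 2 inside the range of the wild types and 1 under it. For Sema3c it was -0.80 (SE 0.18, adjusted p = 0.0359), with P0 wild types at 94.9, 76.0 and 84.7 CPM and P0 knockouts at 92.0, 90.9 and 65.6 CPM. These ligands had P0 log2 fold changes of -0.06 and -0.05. The other ligands called at P14 had P0 groups that overlapped: Sema3f knockouts stood at 35.2, 35.6 and 47.1 CPM, and Sema5a at 55.0, 50.8 and 48.2 CPM in the wild types and 49.7, 53.5 and 39.9 CPM in the knockouts.

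For the P0 ligands the differences were positive, 0.76 for Sema3d (SE 0.19, adjusted p = 0.0433) and 0.64 for Sema3e (SE 0.14, adjusted p = 0.0163), since their P14 log2 fold changes were also below 0 but smaller. Sema4c had a difference of -0.56 (SE 0.13, adjusted p = 0.0315), with P14 controls at 18.7, 20.7 and 20.7 CPM and P14 knockouts at 19.2, 16.4 and 17.3 CPM. Plxnc1 was the 1 receptor called, at 0.57 (SE 0.12, adjusted p = 0.0152), with P14 controls at 57.4, 59.6 and 68.9 CPM and P14 knockouts at 75.4, 72.3 and 74.3 CPM. Plxnc1 lay below every wild type at P0 and above every control at P14, though neither comparison called it on its own. For Sema3f the difference of 0.91 (SE 0.25, adjusted p = 0.0656) was not called, nor was that of Sema5a (-0.41, adjusted p = 0.158), so the P14 calls of these genes are not shown to differ from P0. Of the 6 calls, that of Sema3a held in 18 of 18 alternatives, Sema3e and Plxnc1 in 14, Sema4c in 11, Sema3c in 10 and Sema3d in 7.

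**Figure D4:**
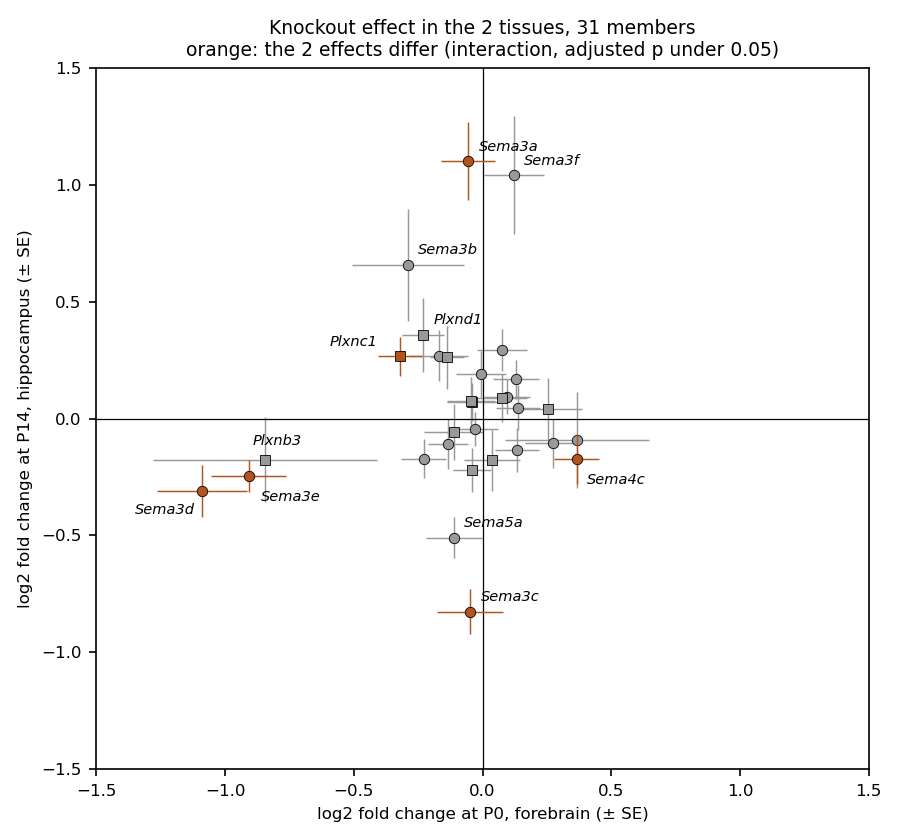
Knockout log2 fold change (± SE) at P0 on the horizontal axis and at P14 on the vertical axis for the 31 genes, circles for ligands and squares for receptors; orange marks the 6 genes whose effects differ in the interaction test. Sema3a and Sema3c lie close to the vertical axis, Sema3d and Sema3e to the left with smaller values at P14.

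The receptor values at P14 depend on 1 control library. Control replicate 3 was the highest of the 3 controls for 10 of 11 receptors and the highest of all 6 libraries for 8 of 11. Against the mean of the other 2 controls its median log2 ratio was 0.39 over the receptors, 0.10 over the 20 ligands and -0.025 over the 17177 other genes tested. It was the highest control for 12 of 20 ligands and for 6148 of those 17177 genes. For 7 of 20 ligands and 3226 of the 17177 genes it was the highest of all 6 libraries. Plxna1 shows this: the controls stood at 193, 191 and 276 CPM and the knockouts at 272, 261 and 252 CPM, for a log2 fold change of 0.26 (SE 0.14, adjusted p = 0.415). Plxna4 had 203, 217 and 297 CPM in the controls and 215, 205 and 210 CPM in the knockouts, and Plxnd1 had 49.8, 55.7 and 74.8 CPM against 77.4, 67.3 and 85.2 CPM. Plxnb1 had 116, 130 and 141 CPM against 130, 140 and 135 CPM, and Plxnb2 had 69.1, 80.8 and 95.6 CPM against 83.2, 87.5 and 86.4 CPM. In each of these the third control stood above all knockouts, apart from Plxnd1, where 2 of the 3 knockouts were higher.

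Without control replicate 3 the P14 comparison called 11 of the 31 genes instead of 4, where 1808 genes in all (10.3%) were called instead of 342. The added members were Plxna1, Plxna2, Plxnc1, Plxnd1, Nrp1 and Sema3b, all higher in the knockouts, and Sema3e, lower. So in the main setting 5 of 11 receptors were called without that library and 0 with it. In the fit without the low-count filter, Plxna1, Plxnd1 and Sema3b were called with that library kept. The library's choroid plexus marker sum was the highest of the 12 at 2549 CPM. Whether either set of receptor values is the better estimate was not tested.

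**Figure D5:**
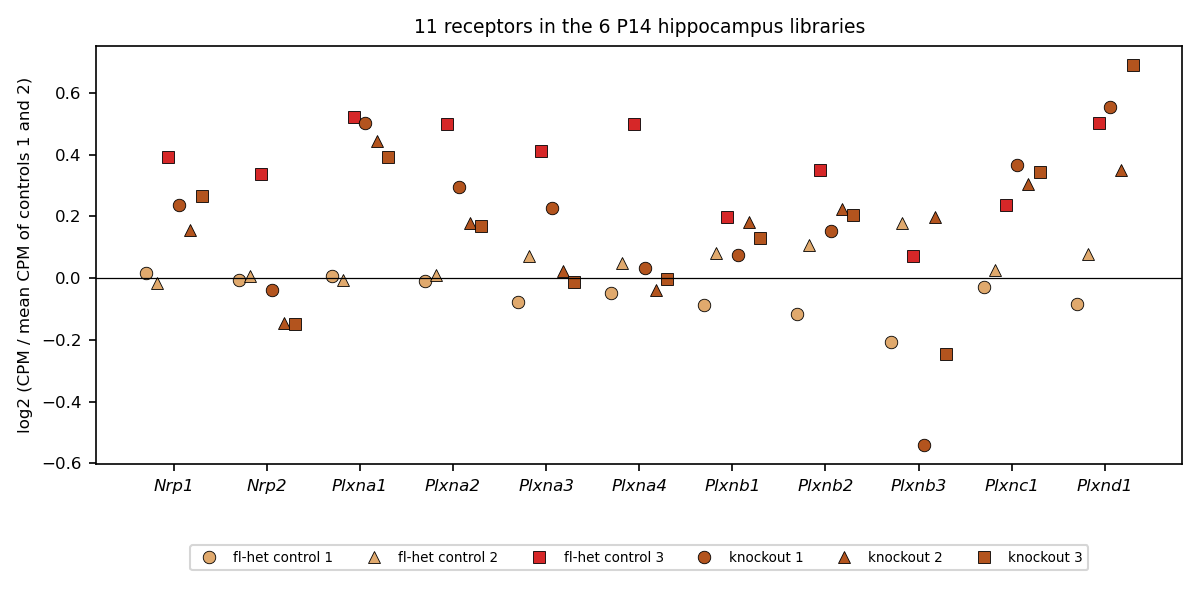
Log2 ratio of each P14 library's CPM to the mean CPM of fl-het controls 1 and 2, for the 11 receptors. The red squares (control 3) are the highest control for 10 of 11 receptors, with a median of 0.39.

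Summed over the family, the balance of ligand to receptor RNA can be read per library, from CPM per kb and without a test. At P0 the ratio of the ligand sum to the receptor sum was 1.13, 1.18 and 1.15 in the wild types and 1.29, 1.20 and 1.36 in the knockouts. At P14 it was 1.95, 1.78 and 1.47 in the controls and 1.51, 1.60 and 1.60 in the knockouts. The P0 groups did not overlap in this ratio. The P14 groups overlapped through control replicate 3, whose receptor sum of 145 CPM per kb lay above those of the other controls (107 and 113) and the knockouts (129, 126 and 127). On coding length the P0 groups overlapped too, at 1.31, 1.37 and 1.32 against 1.42, 1.32 and 1.51.

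The class 3 ligands alone summed to 27.3, 24.1 and 25.8 CPM per kb in the P0 wild types and 25.6, 25.4 and 23.4 in the P0 knockouts, which overlap. At P14 the class 3 sum was 34.7, 34.0 and 33.4 CPM per kb in the controls and 24.8, 24.5 and 26.4 in the knockouts, with no overlap. Sema3c and Sema3e make up most of the P14 sum, so the rises of Sema3a and Sema3f, which are low there, add little to it.

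The genes known to carry semaphorin signals onward were followed in a list of 49: co-receptors and adhesion partners, collapsin response mediators and MICALs, GTPases and their regulators, and kinases with their cytoskeletal effectors. At P0 none of the 49 was called, where 0.909% of all genes were, 13 lay above 0, where 49.9% of all genes did, and the median was -0.07. At P14 3 of the 49 were called, all higher, where 1.99% of all genes were called and 1.21% higher, and the median was 0.05. Met, a receptor tyrosine kinase that can couple to B plexins, stood at 11.3, 12.7 and 12.7 CPM in the controls and at 23.2, 16.0 and 22.3 CPM in the knockouts, a log2 fold change of 0.75 (SE 0.14, adjusted p = 0.013). Rnd1, a GTPase that binds plexins, stood at 21.6, 23.5 and 24.0 CPM against 30.7, 31 and 32.6 CPM, a log2 fold change of 0.46 (SE 0.09, adjusted p = 0.016). Chn2, a Rac GTPase-activating protein, stood at 20.1, 25.8 and 19.7 CPM against 31.8, 35.1 and 29.9 CPM, a log2 fold change of 0.58 (SE 0.11, adjusted p = 0.0156). In none of the 3 did the groups overlap. Over 13 alternatives the call of Chn2 held in 10, that of Met in 9 and that of Rnd1 in 8. All 3 were lost without knockout replicate 1 or control replicate 1. Without knockout replicate 2 Rnd1 and Chn2 were lost, and without knockout replicate 3 or control replicate 2 Met and Rnd1 were lost.

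In the interaction contrast 2 of the 49 (4.08%) were called, both positive, where 1.79% of all genes were called and 1.37% positive. They were Met, at 0.80 (SE 0.20, adjusted p = 0.0465), and L1cam, an adhesion molecule of the Sema3a receptor complex, at 0.57 (SE 0.14, adjusted p = 0.0433). L1cam stood at 388, 356 and 365 CPM in the P0 wild types and 270, 291 and 331 CPM in the P0 knockouts, and at 189, 193 and 254 CPM in the P14 controls and 271, 245 and 243 CPM in the P14 knockouts. Its control replicate 3 again lay among the knockouts. Of 18 alternatives the call of Met held in 8 and that of L1cam in 7, with adjusted p up to 0.132 and 0.144. Between the controls, 39 of the 49 were called, 19 higher and 20 lower at P14, where 64.7% of all genes were called, 32.5% higher and 32.2% lower. The largest differences were those of Dpysl3 (-3.03), Mical2 (2.97), Dpysl5 (-2.59) and Chn1 (2.48), which encode 2 collapsin response mediators, an actin-oxidizing MICAL and a Rac regulator.

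Of the 6 ligands called at P0 or P14, 4 lie in order on the plus strand of chromosome 5 of GRCm38: Sema3d from 12383385 to 12588948, Sema3a from 13125414 to 13602565, Sema3e from 14025276 to 14256689 and Sema3c from 17574281 to 17730268. Auts2 is on the same chromosome, from 131437333 to 132543344 on the minus strand, 113.7 to 118.8 Mb away. In the stretch from 11383385 to 18730268 that holds them, 8 other genes were tested and none was called in either comparison. At P0, 7 of the 8 lay below 0, with a median log2 fold change of -0.16 against -0.00034 for all genes. At P14, 5 of the 8 lay below 0, with a median of -0.15 against -0.0073. The part of position in these values was not tested. At an unadjusted p under 0.05 the counts were 2 of 8 at P0 and 4 of 8 at P14, where 16.1% and 15.2% of all genes passed. Sema3f lies on chromosome 9 from 107681500 to 107710475 (minus strand), Sema5a on chromosome 15 from 32244810 to 32696341 (plus strand), Sema4c on chromosome 1 from 36548639 to 36558349 (minus strand) and Plxnc1 on chromosome 10 from 94790866 to 94944835 (minus strand). Counts did not use strand, and 7 of the 31 genes share exon bases with another annotated gene, up to 10.7% for Plxna1 and 7.27% for Sema4c, so reads there cannot be assigned to one gene with certainty. None of the 6 called ligands shares exon bases.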

How the data were processed

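The authors deposited, for each library, unnormalized read counts for each Ensembl gene, made on GRCm38 with STAR 2.7.5a, per the submitters' processing notes, which also name edgeR 3.12. The unstranded count was used, because each strand column held about the same share (49.88% to 49.98%). Symbols, lengths and coordinates came from GENCODE vM21. A symbol was found for 55227 of 55487 identifiers. Groups came from the labels, and replicate numbers, given in accession order, pair nothing. The labels call the samples individual mice.

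Each comparison was fitted over all genes with edgeR 4.0.16 in R 4.3.3 (filterByExpr, TMM, estimateDisp, robust glmQLFit, glmQLFTest). P-values were adjusted by Benjamini-Hochberg, and 0.05 was the threshold. The interaction used all 12 libraries. The SE was derived from the fold change and its F statistic. In a simulation where 200 genes differed by a fold of 2, 77.5% were recovered at P0 and 78.0% at P14. The values were 56.5% for the interaction and 74.0% for the controls. Of the calls, 7.38% to 8.77% were false, which is above the 0.05 threshold. In the data themselves 64.7% of all genes were called between the controls. Recovery where that many genes differ was not tested, either for the controls or for the interaction over all 12 libraries.

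The members and lists were chosen with earlier results of these data known. Values per library are given for genes called at P0, at P14 or in the interaction and for the 3 ligands and 3 receptors with the highest level per kb. Alternatives were DESeq2 1.42.0, RLE and upper-quartile scaling, no filter, at least 10 counts in every library, a non-robust fit, a fit on all 12 libraries, the P0 series as a term or its first series alone, and each library left out in turn. Coding length was added after seeing the data. Isoforms and exon 7 were not analysed here. The values of the oligodendrocyte list as a whole are not reported here.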

Additional observations from a re-analysis of the deposited data

Results flagged for a closer look

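For 6 of 31 members and 2 of 49 pathway genes the knockout effect at P14 differed from that at P0 in the interaction test. Of all genes tested, 1.79% were called there. The differences in log2 fold change, P14 minus P0, were 1.14 for Sema3a, -0.80 for Sema3c, 0.76 for Sema3d, 0.64 for Sema3e, -0.56 for Sema4c and 0.57 for Plxnc1. For Met the difference was 0.80 and for L1cam 0.57, and these calls held in 8 and 7 of 18 alternatives. The effects of Plxnc1 and L1cam had opposite signs at the 2 ages, -0.32 and 0.27 for each after rounding, and neither gene passed the test at either age alone.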

How the results depend on the processing

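No paired analysis was possible because the labels give no replicate numbers shared between groups. The count of members called at P0 was 2, and it was 4 with DESeq2, without the low-count filter and with the library series as a term, 7 in the first series alone, and 0 to 5 when single libraries were left out. At P14 the count was 4, 7 without the low-count filter, and 2 to 11 when single libraries were left out. For the interaction the count was 6, and 1 to 10 when single libraries were left out. Between the controls it was 27, and 24 to 27 over all alternatives. Over all genes, the P0 count of 147 was 50 in the non-robust fit, 284 in the fit on all 12 libraries, 382 with DESeq2, 465 with the series term, 625 without the filter and 2107 in the first series alone. The P14 count of 342 was 534 with DESeq2 and 814 without the filter, and the interaction count of 326 was 531 and 646. Leaving out a library leaves a group of 2, and the part of the smaller number of samples in a lost call was not tested. Over all genes the count then went both ways, from 1 to 775 at P0 and from 104 to 1808 at P14. Signs were followed in all alternatives only for values called in at least 1 of them. Other values near 0 turned as well. At P0, Sema3a went from -0.06 to 0.02 and Sema3c from -0.05 to 0.10 in the first series alone, without a call. Among the values followed, signs turned for 2 genes whose value was near 0 and not called in the main fit. Plxna2 at P14, 0.04, became -0.0049 without knockout replicate 1, -0.0527 without control replicate 1 and -0.0400 without control replicate 2, and up to 0.2329 without control replicate 3. Plxna1 between the controls, -0.04, became 0.0104 without the filter, 0.0521 without P14 control replicate 1 0.0594 without P14 control replicate 2, and down to -0.2279 without P14 control replicate 3. Upper-quartile scaling moved the differences between the controls down by about 0.09, ended the calls of Plxna4 and Sema3g and brought a call of Sema6a. With 3 libraries a group, an exact permutation test of 1 value cannot go below p = 0.1. Genes under about 50 counts a library, such as Plxnb3 at P0 and Sema3f in the P14 controls, are the least precise.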
